A study of Mus musculus with 4 samples.

Results

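The rows described here are unnamed transcripts: stretches of the genome to which the authors' transcript assembly gave a locus and an expression value but no gene name. A row was taken when its locus was longer than 200 bp, overlapped a named row or lay less than 5000 bp from one, and had a mean of at least 0.5 FPKM over the 4 libraries (FPKM is a transcript level corrected for the length of the transcript and the depth of the library). Of 30640 rows, 1481 met the rule. The rule used the mean level, so the levels themselves are a description. It did not use the difference between the groups, but a row that was low in 1 group could meet it through the other group alone. The libraries come from CCE, an established mouse embryonic stem (ES) cell line of strain 129SV, kept on gelatin in 15% serum with leukemia inhibitory factor. A short hairpin RNA targeted luciferase, an insect gene that mouse cells lack, in 2 libraries (shLuci) and Tex10 in the other two (shTex10). The study gives 1 hairpin name per group and calls the replicates biological, with nothing said about separate infections, so the p-values reflect how far these particular samples scatter. Each row was compared between shTex10 and shLuci, and then with its nearest named gene.

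As background, transcript assembly groups reads that lie together, and places with no annotated gene can yield transcripts of several kinds: RNA made in the opposite direction from an active promoter, RNA that continues past a polyadenylation site, retained introns, unannotated exons, pseudogenes and repeats. Active CpG-rich promoters of mammalian cells are known for short upstream transcripts, most of which the nuclear exosome removes. TEX10 is a nuclear protein that is known from a ribosome biogenesis complex with PELP1, WDR18 and LAS1L, and the series title ties it to super-enhancers and pluripotency. How strand was treated is not given in the sources used here, so an unnamed row cannot be assigned to the sense or antisense direction of its neighbour, and reads of a row that overlaps a gene cannot be told apart from reads of that gene.

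Tex10, the targeted gene, checks the labels. It measured 77.3 and 82.1 FPKM in shLuci and 11.6 and 13.4 FPKM in shTex10, so both shTex10 values lay below both shLuci values, with a difference of -2.63 on the log2(FPKM + 0.5) scale (SE 0.10, limma adjusted p = 0.000778). No unnamed row had Tex10 as its nearest named gene. All 6 ES cell markers were present, with sums between 3850 and 5033 FPKM per library, and 4 of the 6 were lower in shTex10. The 9 fibroblast feeder markers summed to 37.9 and 29.2 FPKM in shLuci and 44.3 and 33.1 FPKM in shTex10. Of these, 4 were below 1 FPKM in every library, with Lum at or near 0, and 0 unnamed rows lay near any of the 9. Of the 5 that could be tested, Col1a2 was lower and 0 were higher. In bulk RNA, fewer cells of a type and less RNA per cell cannot be told apart, here and in all results that follow. The low values are whole multiples of the value of 1 read, which put the relative depth of shLuci replicate 2, shTex10 replicate 1 and shTex10 replicate 2 at 94.0%, 83.4% and 92.0% of shLuci replicate 1. Reads could be recovered in this way for 1114 of the 1481 rows (75.2%). Their median was 54 reads over the 4 libraries together, with 103 rows under 20 reads. Many single rows therefore rest on few reads, and the counts could be too low by a common factor.

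The rows fell into 2 classes by position. For 485 rows the file prints exactly the interval of a named row, so where the unnamed transcript lies inside that interval is not resolved. They fill 170 intervals. The other 996 rows lay beside a named locus: 547 upstream of the gene's start, 373 downstream of its end, and 76 next to a row whose orientation could not be read. Of the upstream rows, 274 (50.1%, Wilson 95% interval 45.9 to 54.3) were within 500 bp of the gene, and the median distance of all 547 was 494 bp. Of the downstream rows, 83 (22.3%, 18.3 to 26.7) were that close, and the median distance of all 373 was 2298 bp. Rows of 1 locus are not independent, so the intervals cover counting error only. The rows just inside and just outside the level threshold were near Depdc1a, Zfp960 and Zfp273 at 0.5001, 0.5002 and 0.5005 FPKM, and near Prpf38b, BC003965 and Stk11 at 0.4998, 0.4996 and 0.4992 FPKM. At the distance threshold, rows near Tgif1, Impact and 6720401G13Rik lay 4993, 4977 and 4971 bp away and were kept, and rows near St7l, 1700013G24Rik and Tmem88b lay 5021, 5042 and 5062 bp away and were not. The shortest loci kept, near Asns, Il1f9 and Gm10471, were 205, 210 and 216 bp long, and the longest ones left out were 198 bp.

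**Figure D1:**
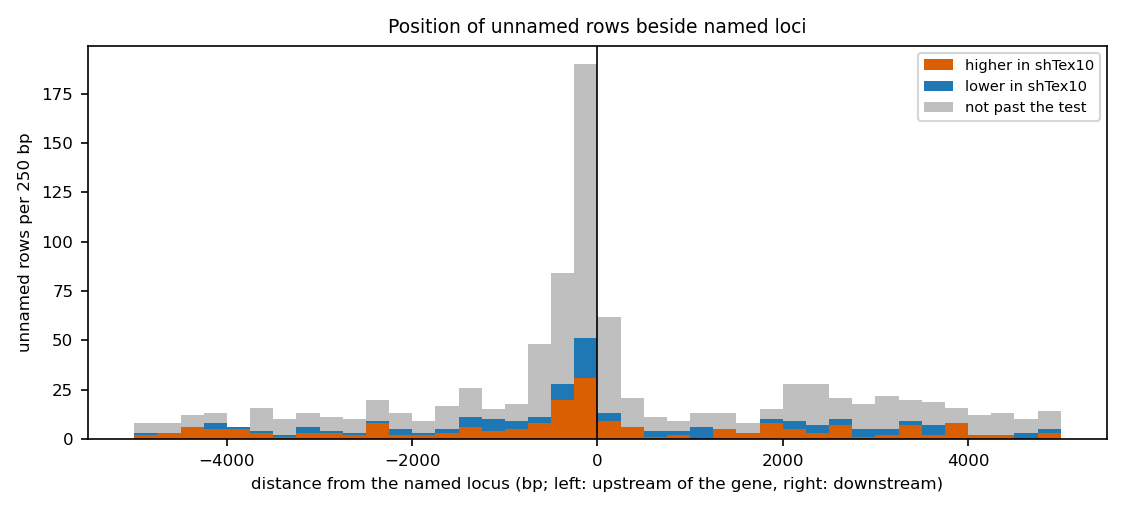
Number of unnamed rows beside a named locus per 250 bp of distance (x axis, bp, upstream of the gene to the left and downstream to the right), stacked by the call in shTex10 against shLuci. Rows are most frequent just upstream, where 274 of 547 upstream rows lie within 500 bp, while 83 of 373 downstream rows do.

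Because so many rows sit just before a gene, the 250 bases before the annotated start of 5 such genes are printed here. They belong to rows named by the selection rules given below that passed the test and lay less than 250 bp upstream. Only genes with exactly 1 promoter in the set used were taken, a condition that Bbc3, with a row 74 bp upstream, did not meet. In order they are Tdpoz4 (whose upstream row rose most), Ccnb1ip1 (whose row fell most) and Mrpl42 (whose row moved away from its gene). Nolc1, a ribosome biogenesis gene, and Zfp42, a naive pluripotency gene, follow. The sequences are RefSeq's, in build GRCm38.p6, matched by symbol, and are not the authors' mm9 loci, so the rows themselves are not drawn on them. In the same order they lie at chr3:93796148-93796397, plus strand, chr14:50795729-50795978, minus strand, chr10:95501950-95502199, minus strand, chr19:46075597-46075846, plus strand and chr8:43307010-43307259, minus strand. Capitals mark matches, on either strand, to CCAAT (the CCAAT box), GGGCGG (the GC box) or TATAAA (the TATA box), which do not overlap each other.
Tdpoz4: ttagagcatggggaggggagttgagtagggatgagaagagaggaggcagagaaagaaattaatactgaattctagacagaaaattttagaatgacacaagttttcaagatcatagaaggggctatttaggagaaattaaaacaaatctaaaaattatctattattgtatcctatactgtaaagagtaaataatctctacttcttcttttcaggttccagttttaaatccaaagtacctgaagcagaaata
Ccnb1ip1: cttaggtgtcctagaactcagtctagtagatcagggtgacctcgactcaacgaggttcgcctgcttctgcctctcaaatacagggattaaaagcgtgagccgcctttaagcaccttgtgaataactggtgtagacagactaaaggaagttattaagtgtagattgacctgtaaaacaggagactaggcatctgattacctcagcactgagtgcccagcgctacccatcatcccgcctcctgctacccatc
Mrpl42: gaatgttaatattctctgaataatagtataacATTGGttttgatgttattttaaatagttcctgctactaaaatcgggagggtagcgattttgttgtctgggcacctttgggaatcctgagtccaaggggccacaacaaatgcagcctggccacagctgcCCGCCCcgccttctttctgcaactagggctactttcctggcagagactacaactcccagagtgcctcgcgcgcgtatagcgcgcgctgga
Nolc1: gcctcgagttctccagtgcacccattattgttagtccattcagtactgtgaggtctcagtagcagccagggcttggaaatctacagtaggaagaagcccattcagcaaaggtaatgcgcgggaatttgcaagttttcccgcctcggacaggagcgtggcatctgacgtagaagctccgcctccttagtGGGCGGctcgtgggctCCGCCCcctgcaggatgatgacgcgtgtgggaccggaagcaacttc
Zfp42: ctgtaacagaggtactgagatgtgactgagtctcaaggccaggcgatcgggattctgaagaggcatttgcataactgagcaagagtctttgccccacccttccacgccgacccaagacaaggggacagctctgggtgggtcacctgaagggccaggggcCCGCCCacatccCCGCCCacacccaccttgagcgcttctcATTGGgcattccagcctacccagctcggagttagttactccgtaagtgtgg
The Tdpoz4 window holds 0 CpG dinucleotides and none of the 3 motifs, and the Ccnb1ip1 window 7 CpG and none of the motifs. The Mrpl42 window holds 11 CpG, 1 CCAAT box and 1 GC box. The Nolc1 window holds 14 CpG and 2 GC boxes, and the Zfp42 window 9 CpG, 1 CCAAT box and 2 GC boxes. Of 183 genes with an upstream row less than 250 bp away, 126 had an entry in the table, with 172 promoters. Their median was 18.5 CpG in 250 bases, against 6 in all 32851 promoters of the table. A GC box was present in 57.0% of them against 32.7% of all, a CCAAT box in 27.9% against 33.8%, and a TATA box in 1.7% against 12.4%. These shares describe letters in a window and not the binding of any factor. All promoters of the table were taken, whether or not the gene is expressed in these cells. A comparison with expressed genes alone was not made, so the differences cannot be assigned to the upstream rows.

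Among the 1481 unnamed rows, 330 were higher and 183 lower in shTex10, and 968 did not pass (limma, Benjamini-Hochberg adjusted p under 0.05). Over all 16968 rows tested, 47.1% were called, 23.2% as higher and 23.9% as lower. The unnamed rows near genes had 34.6% called, 22.3% higher and 12.4% lower. In all 330 and all 183 the groups did not overlap. Of the 330, 188 had a shLuci mean below 0.5 FPKM, and of the 183, 80 had a shTex10 mean below 0.5 FPKM. These rows met the level rule only through the group where they were higher. Counted by overlap alone, 535 rows had both shTex10 libraries above both shLuci libraries and 436 below, while 34.7% and 40.8% of all rows tested did so. A rise of at least 1 on the log2(FPKM + 0.5) scale was reached by 208 rows and a fall of that size by 54. Differences on this scale understate the change of low rows. The median difference was 0.03, and over all rows it was -0.06. Unnamed rows farther than 5000 bp from any named row (2175) were called higher in 1042 cases and lower in 201, with a median of 0.70.

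The balance of higher and lower calls moved with the scaling of the libraries. As deposited, 64.3% of the calls among the unnamed rows near genes were higher. With each library scaled to the same sum over named rows, 382 were higher and 98 lower (79.6% higher), and the median over all rows moved from -0.06 to 0.13. With quantile normalization, 215 were higher and 371 lower (36.7% higher), while the median over these rows moved to -0.27 and that over all rows to -0.09. With the same sum over all rows, 248 were higher and 89 lower, and several of the single calls described further on were lost, namely those of the rows near Zfp281 (XLOC_001634), Olfr814, Bahcc1, Dppa2, Il1f9, Cdkn2b, Bbc3 and Las1l, of XLOC_020148, and of XLOC_027345 and XLOC_027346 near Zfp42. Leaving out shLuci replicate 1 left 119 lower calls in place of 183. The share of rows called was larger at higher levels. It was 28.2% between 0.5 and 1 FPKM, 40.8% between 1 and 2 FPKM, 45.3% between 2 and 5 FPKM and 51.9% above that. Upstream rows (122 higher, 65 lower of 547), downstream rows (76 higher, 47 lower of 373) and rows in shared intervals (112 higher, 63 lower of 485) were called in similar shares, 34.2%, 33.0% and 36.1%, and these shares were not tested against each other.

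The nearest named gene could be tested beside 1413 of the 1481 rows, and these rows have 891 different nearest genes. In the other 68 the gene was below 0.5 FPKM. The row and its gene were both higher in 174 pairs and both lower in 97. In 27 pairs the row was higher and the gene lower, and in 8 the row was lower and the gene higher. The row alone was called higher in 105 pairs and lower in 71, the gene alone higher in 116 and lower in 250, and neither in 565. Beside the 298 pairs whose gene rose, 174 rows rose, and beside the 374 whose gene fell, 97 rows fell. Across pairs, the difference of the row and that of the gene had a Pearson correlation of 0.603 and a Spearman correlation of 0.521. Both were 0.702 and 0.60 in shared intervals (481 pairs), 0.567 and 0.519 for upstream rows (522) and 0.466 and 0.486 for downstream rows (340). The points of such a correlation share the same 4 libraries, and many share a gene or an interval, so these values are a description.

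A direct test of the ratio of row to gene within each library called 101 rows as changed upward against their gene and 71 as changed downward, 12.2% of 1413. Over all 2869 pairs of an unnamed row with a nearest gene at any distance, 25.2% were called, 19.3% upward and 5.89% downward. In shared intervals 21 were upward and 32 downward of 481, and beside the locus 80 were upward and 39 downward of 932. Each of the 4 libraries bears on these counts. They became 55 and 28 without shLuci replicate 1, 49 and 44 without shLuci replicate 2, 34 and 15 without shTex10 replicate 1, and 51 and 24 without shTex10 replicate 2. Quantile normalization, which changes low and high values differently, gave 45 upward and 143 downward.

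**Figure D2:**
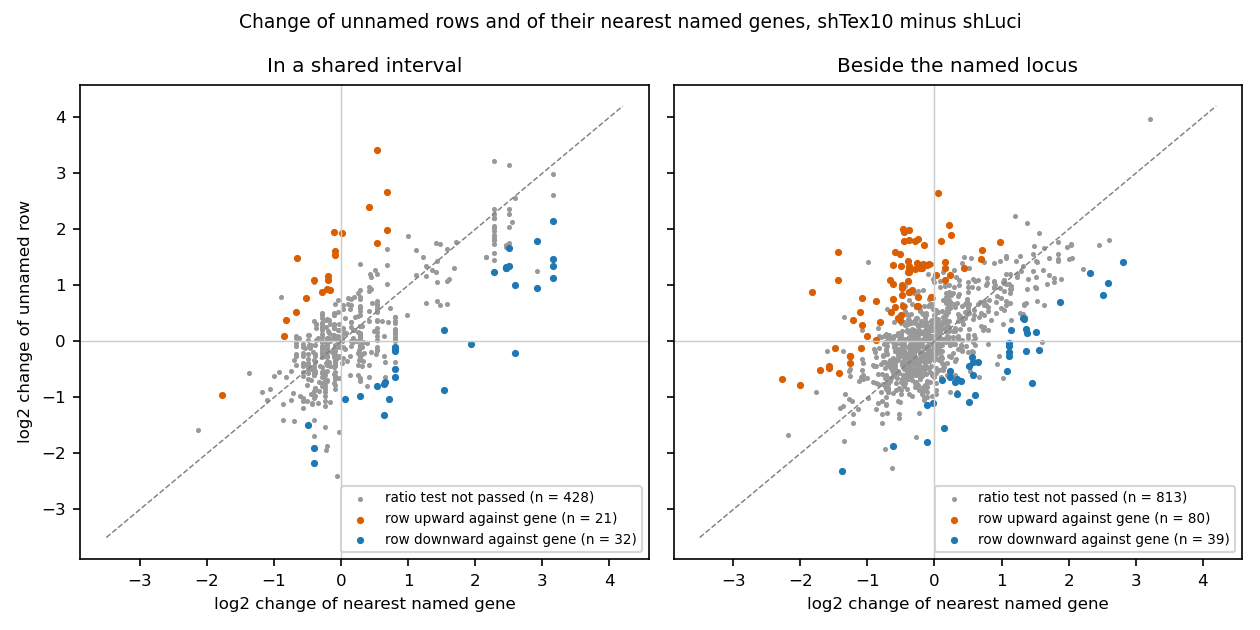
Difference of each unnamed row (y axis) and of its nearest named gene (x axis), shTex10 minus shLuci on the log2(FPKM + 0.5) scale, for 481 pairs in a shared interval (left) and 932 beside the locus (right). The dashed line marks equal change. Coloured points passed the ratio test, 101 rows upward and 71 downward against their gene, and most points lie in a band around the line.

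Several of the rows that rose most lay among genes known from the 2-cell-like state, a transient condition of ES cells with transcripts of the 2-cell embryo, and in other multicopy gene clusters. On chromosome 5 (mm9 chr5:14899846-15220414), 17 of 17 unnamed rows in the interval of the Speer genes were higher, by 1.24 to 3.22 with a median of 1.97. The Speer genes are a rodent family expressed in testis. The highest of these rows, XLOC_021592, measured 7.61 and 9.25 FPKM in shLuci and 40.8 and 44.5 FPKM in shTex10. XLOC_021594 measured 3.91 and 3.46 FPKM against 24.2 and 18.4 FPKM, and XLOC_021599 6.75 and 4.31 FPKM against 31.3 and 23.0 FPKM. In each of these 3 rows both shTex10 libraries lay far above both shLuci libraries. The 12 named rows tested there also all rose, with a median of 1.87.

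On chromosome 12 (mm9 chr12:89158229-89569046), 8 of 8 unnamed rows in the interval of Gm5662 and Gm2042 were higher, with a median of 1.90, and all 6 named rows tested rose, with a median of 2.34. XLOC_005645 went from 5.64 and 5.34 FPKM to 30.9 and 26.3 FPKM, and XLOC_006598 from 2.74 and 2.60 FPKM to 15.9 and 15.7 FPKM. Their differences of 2.28 (SE 0.11, adjusted p = 0.00089) and 2.36 (SE 0.09, adjusted p = 0.000778) were close to the 2.51 of Gm5662 itself, and the ratio test did not pass (adjusted p = 0.579 and 0.687). On chromosome 3 (mm9 chr3:93712152-94073488), 6 of 6 rows in the interval of Gm10696, Gm9125 and Tdpoz5 were higher, with a median of 1.81, beside 3 of 3 named rows tested with a median of 2.77. XLOC_018202 was the strongest of them, at 0.569 and 0.581 FPKM in shLuci and 8.16 and 7.82 FPKM in shTex10, from 664 reads. The genes of these 3 clusters have near-identical copies, and how the authors' counting divided shared reads is not given in the sources used here, so the values of single rows are uncertain.

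Some intervals of single genes had every row called in 1 direction. All 5 rows in the interval of Slamf9, a receptor of the SLAM family, were higher, by 1.31 to 1.72, and Slamf9 rose by 2.46. All 5 in the interval of C1d, a nuclear cofactor of the RNA exosome, were higher, with a median of 1.65, against 0.68 for C1d, and 3 of these 5 were called without shLuci replicate 2. In the opposite direction, 12 of 13 rows were lower in the interval of Rbmxl2 and Syt9 (mm9 chr7:114341985-114692174), an RNA-binding protein gene and a synaptotagmin gene. Their median was -0.80, and of the 2 named rows tested there 1 was higher and 0 lower. The ratio of row to gene passed in 0 of the 13 rows. XLOC_025935 had the largest fall there, from 2.63 and 4.91 FPKM to 1.07 and 0.794 FPKM. All 13 rows kept a negative difference under each scaling tried, but 2 passed after scaling to the same sum over all rows, 6 without shLuci replicate 1, and 8 without any one of the other libraries. Fewer rows passed in the intervals of Sipa1l2 (5 lower of 17), Zfp281 (4 of 15), Tdrd12 (4 of 12) and Zdbf2 (4 of 10). Without shLuci replicate 1, shLuci replicate 2, shTex10 replicate 1 and shTex10 replicate 2 in turn, these counts became 6, 8, 6 and 4 for Sipa1l2, 0, 2, 2 and 2 for Zfp281, 2, 2, 4 and 3 for Tdrd12, and 2, 1, 2 and 1 for Zdbf2. In the same order of genes they were 13, 10, 7 and 8 with quantile normalization, 6, 0, 1 and 1 at the same sum over all rows, and 3, 1, 1 and 2 at the same sum over named rows.

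Other intervals held many rows and few calls. The interval of Gm10324 on chromosome 13 had 27 rows with 1 higher and 2 lower, that of 2410141K09Rik had 26 with 2 higher and 2 lower, and that of Trpm3, a cation channel gene that hosts Mir204, had 20 with 1 lower. Rows of 1 interval moved both ways in 5 of the 170 intervals. In a chromosome 4 interval of 20 named rows with the zinc finger genes Zfp600 and Rex2 (mm9 chr4:145850603-146959310), 7 of 19 rows were higher and 1 lower, and 3 and 0 at the same sum over all rows. XLOC_020142 measured 3.02 and 3.21 FPKM in shLuci and 38.0 and 37.8 FPKM in shTex10, whereas XLOC_020148 in the same interval measured 38.1 and 30.1 FPKM and then 20.2 and 18.3 FPKM. The groups did not overlap in either row, and the differences were 3.41 (SE 0.09, adjusted p = 0.000778) and -0.80 (SE 0.14, adjusted p = 0.0102). The rise of XLOC_020142 rests on 2, 2, 21 and 23 recovered reads.

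**Figure D3:**
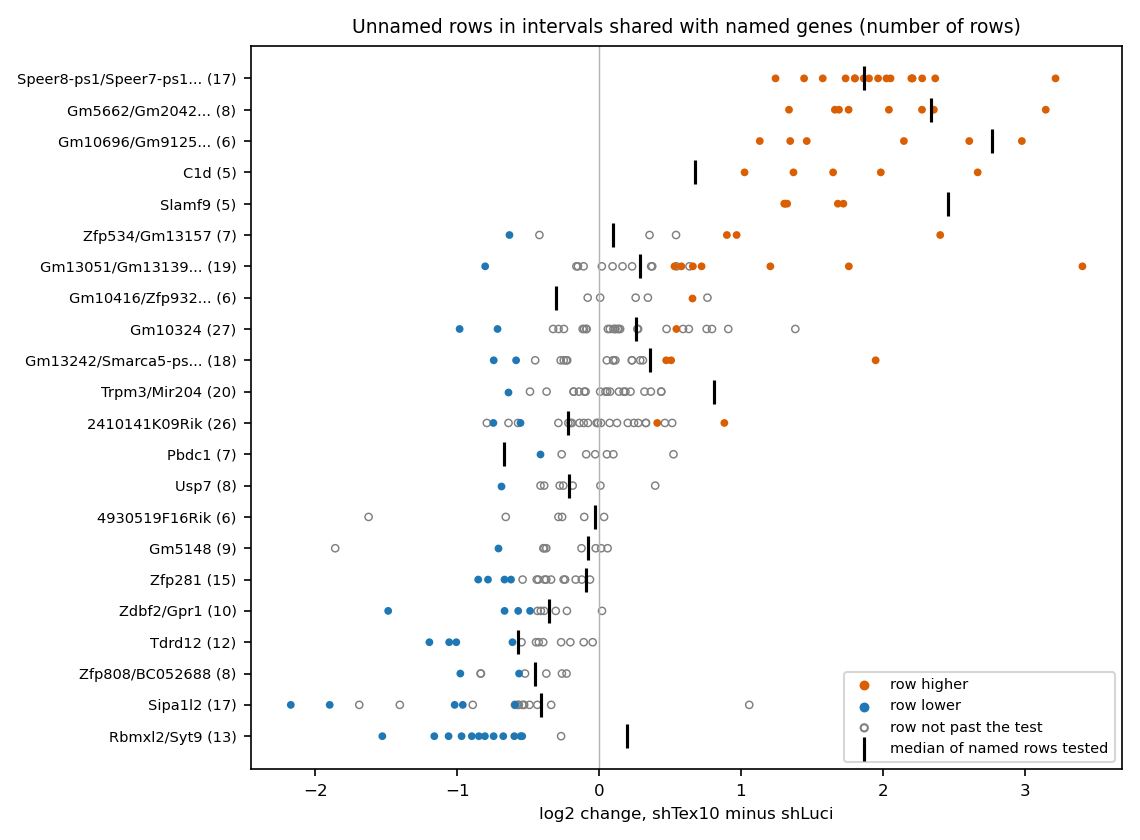
Differences (x axis, shTex10 minus shLuci, log2(FPKM + 0.5)) of the unnamed rows in the 22 intervals that hold at least 5 of them, with the number of rows in brackets and the median of the named rows tested as a black bar. The Speer, Gm5662, Gm10696, C1d and Slamf9 intervals lie wholly to the right, and 12 of 13 rows of the Rbmxl2 and Syt9 interval are lower.

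Outside such intervals the largest rise was that of XLOC_018191 (mm9 chr3:93577418-93577701), 108 bp upstream of Tdpoz4, a speckle-type POZ gene transcribed in early embryos. It is listed at 0 in both shLuci libraries and measured 9.35 and 5.78 FPKM in shTex10 (difference 3.98, SE 0.24, adjusted p = 0.00106). Tdpoz4 itself went from 1.69 and 2.61 FPKM to 24.3 and 23.0 FPKM, and the ratio of row to gene did not pass (adjusted p = 0.146). XLOC_021647, 3673 bp downstream of Gm10471, was listed at 0 and measured 1.02 FPKM in shLuci, and reached 10.3 and 6.23 FPKM in shTex10 on 16 reads in all. XLOC_018649, in the interval of Gm12794, went from 2.78 and 3.10 FPKM to 18.5 and 21.2 FPKM, and its difference of 2.56 lay beside 2.59 for Gm12794. The groups were apart in each of these rows. The call of XLOC_021591 in the Speer interval, listed at 0 in shLuci replicate 2, depended on single libraries. It had an adjusted p of 0.0464, which became 0.076 without shTex10 replicate 1 and 0.0939 without shTex10 replicate 2. XLOC_006599 in the Gm5662 interval, also listed at 0 there, kept its call without any one library.

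The largest fall was that of XLOC_008977 (mm9 chr14:51419384-51424849), 81 bp upstream of Ccnb1ip1, which encodes a ubiquitin ligase needed for meiotic crossing over. The row measured 17.5 and 16.2 FPKM in shLuci and 3.09 and 2.86 FPKM in shTex10. Its shTex10 values were thus far below both shLuci values, with a difference of -2.32 (SE 0.10, adjusted p = 0.000822). Ccnb1ip1 fell as well, by 1.38 on the same scale, and the row fell further than the gene (ratio -0.94, SE 0.22, adjusted p = 0.0381). XLOC_024502, 2175 bp upstream of Ifitm1, an interferon-induced membrane protein gene, went from 3.13 and 4.23 FPKM to 0.801 and 0.491 FPKM (difference -1.87, adjusted p = 0.00342) beside a fall of Ifitm1 by 0.62 on that scale. XLOC_023471, 1073 bp downstream of Cd9, a tetraspanin gene, went from 3.82 and 2.03 FPKM to 0.327 and 0.593 FPKM, while Cd9 measured 154.5 and 150.4 FPKM against 142.8 and 139.6 FPKM and did not pass (adjusted p = 0.292). The ratio of row to gene passed there (-1.69, adjusted p = 0.0259), on 24 reads of the row.

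Several of the largest falls were those of low rows. XLOC_027669 in the Sipa1l2 interval, a gene for a Rap GTPase-activating protein, measured 1.18 and 2.52 FPKM in shLuci and is listed at 0 in both shTex10 libraries. XLOC_005128, 2292 bp downstream of Npm1, measured 1.70 and 1.15 FPKM and is likewise listed at 0 in both. XLOC_027656 in the Sipa1l2 interval went from 5.85 and 2.49 FPKM to 0.702 and 0.637 FPKM on 16 reads. XLOC_029152, upstream of the RNase P subunit gene Rpp25, went from 1.06 and 2.26 FPKM to 0 and 0.231 FPKM, also on 16 reads, beside a fall of Rpp25 by 1.36 on the log2 scale. In all 4 rows the groups did not overlap. Other calls depended on 1 library. XLOC_010268, downstream of Scaf11 and resting on 14 reads, had an adjusted p of 0.0305 that became 0.0527 without shLuci replicate 1 and 0.0688 without shTex10 replicate 1. XLOC_019911, upstream of Zcchc7, had an adjusted p of 0.0271 that became 0.0679 without shTex10 replicate 2. XLOC_001614, in the interval of Rbbp5 and Tmem81, had an adjusted p of 0.0409 that became 0.0884 and 0.0583 without shLuci replicates 1 and 2.

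**Figure D4:**
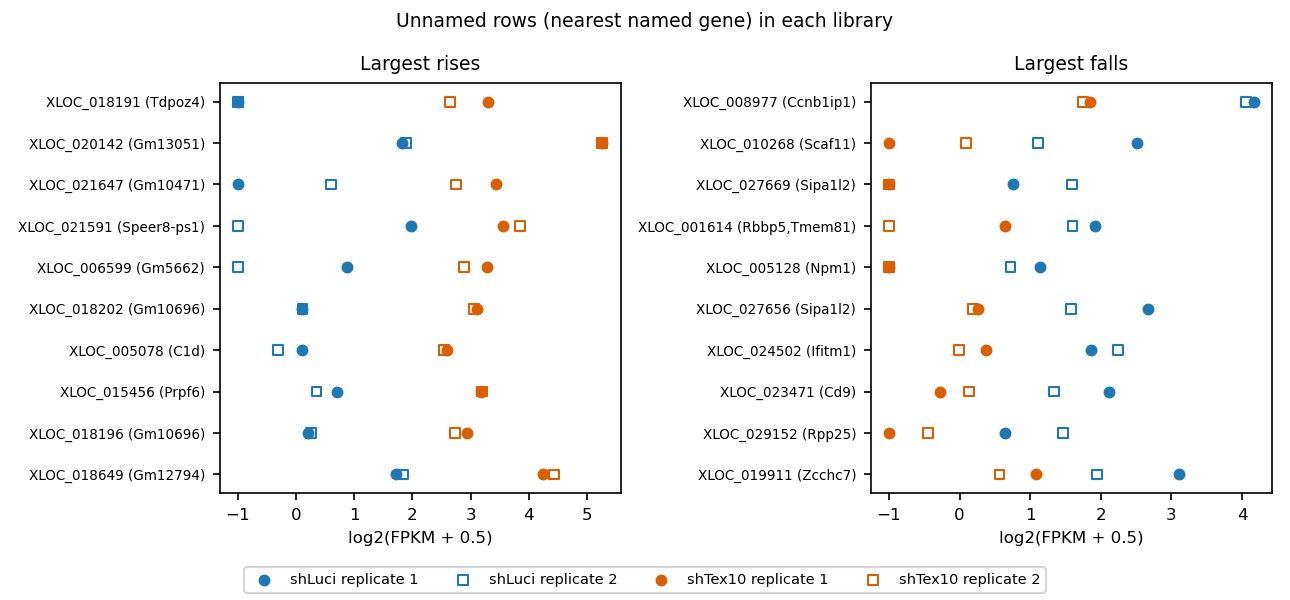
Level in each library (x axis, log2(FPKM + 0.5), where -1 stands for a row listed at 0) of the 10 unnamed rows with the largest rises (left) and the 10 with the largest falls (right) among those past the test, with the nearest named gene in brackets. Only rows whose 2 groups do not overlap were taken.

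In all 8 of the largest upward departures of a row from its gene, the gene fell or did not pass. The 8 were ranked by the change of the row minus that of its gene, which by itself favours genes that fell. XLOC_006577 (mm9 chr12:84972574-84972834), 349 bp upstream of Rbm25, a splicing regulator gene, is among the 10 highest rows. It measured 15.9 and 24.4 FPKM in shLuci and 80.7 and 80.9 FPKM in shTex10, on 386 reads. Both shTex10 values were above both shLuci values, and the difference was 2.01 (SE 0.21, adjusted p = 0.00295). Rbm25 went the other way, from 88.7 and 97.6 FPKM to 63.2 and 71.9 FPKM (-0.46, adjusted p = 0.022), and the ratio changed by 2.47 (SE 0.25, adjusted p = 0.00776). XLOC_003233, 431 bp upstream of the ribosomal protein gene Rpl41, went from 1.35 and 0.973 FPKM to 5.62 and 6.15 FPKM (1.95, adjusted p = 0.00157) while Rpl41 fell by 0.45. A second row there, XLOC_002830, 1265 bp upstream, went from 1.00 and 0.889 FPKM to 5.23 and 3.82 FPKM. Both rows share the Rpl41 values, so they are not separate evidence on the gene.

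XLOC_015456 (mm9 chr2:181391687-181394316), 1320 bp downstream of the splicing factor gene Prpf6, went from 1.14 and 0.779 FPKM to 8.56 and 8.65 FPKM (2.65, SE 0.15, adjusted p = 0.00098). Prpf6 stayed between 47.9 and 51.7 FPKM in the 4 libraries and did not pass (0.05, adjusted p = 0.684), so the ratio changed by 2.61 (adjusted p = 0.00776). XLOC_003145, 189 bp upstream of the mitochondrial ribosomal protein gene Mrpl42, whose promoter is printed above, went from 0.0974 and 0.207 FPKM to 1.46 and 2.91 FPKM on 86 reads (1.99, adjusted p = 0.00683). Mrpl42 was at 101.4 and 126.6 FPKM against 76.4 and 99.0 FPKM and did not pass (adjusted p = 0.136). XLOC_005003, 684 bp upstream of Bahcc1, a chromatin reader gene, rose from 1.57 and 1.27 FPKM to 3.13 and 2.93 FPKM while Bahcc1 fell by 1.83 on the log2 scale, from 6.04 and 4.61 FPKM to 1.33 and 0.942 FPKM. XLOC_018418, 2672 bp downstream of Fut9, the fucosyltransferase gene of the SSEA-1 antigen, rose from 0.161 and 0.157 FPKM to 0.799 and 1.03 FPKM while Fut9 fell by 1.43 on that scale. The largest ratio change was that of XLOC_014561, 3250 bp from the snoRNA host gene Snhg7, at 3.03 (SE 0.41, adjusted p = 0.0112). The row itself rose by 1.60 (adjusted p = 0.0235, and 0.0563 without shLuci replicate 1), and the row of Snhg7 with Snora17 and Snora43 fell from 294.3 and 195.2 FPKM to 106.1 and 73.8 FPKM.

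In all 8 of the largest downward departures the gene rose. The ranking by row minus gene by itself favours genes that rose, the more so because a low row has little room to fall on this scale. XLOC_018612, 557 bp downstream of Cdkn2b, the gene of the cell cycle inhibitor p15, measured 1.16 and 1.13 FPKM in shLuci and 0.545 and 0.435 FPKM in shTex10. Cdkn2b rose from 7.03 and 6.66 FPKM to 20.6 and 18.6 FPKM, and the ratio changed by -2.19 (SE 0.20, adjusted p = 0.00776). The fall of the row alone had an adjusted p of 0.0136, which became 0.0591 without shLuci replicate 1 and 0.0557 without shLuci replicate 2. XLOC_003236, in the interval of the olfactory receptor genes Olfr814 and Olfr815, fell from 48.5 and 46.5 FPKM to 28.6 and 23.3 FPKM, while the named row went from 0.429 and 0.366 FPKM to 2.12 and 2.06 FPKM. It stood far above the named row in FPKM in all 4 libraries, and the ratio changed by -2.40 (adjusted p = 0.00776). The FPKM values of XLOC_003236 rest on 61, 55, 30 and 27 recovered reads, so its high level does not stand for many reads. XLOC_010179 lies in the interval of Ptp4a3, a phosphatase gene that rose by 1.94. The row did not pass, at 0.614 and 0.544 FPKM against 0.409 and 0.704 FPKM, with overlapping groups.

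XLOC_020043 in the Gm12794 interval had the largest downward ratio, -2.80 (adjusted p = 0.0242), with overlapping row values of 1.06 and 0.450 FPKM against 0.127 and 1.27 FPKM on 26 reads. That ratio had an adjusted p of 0.0506 without shLuci replicate 1 and 0.0589 without shTex10 replicate 1. The same interval held XLOC_018649, which rose with the gene. XLOC_018199 and XLOC_018201 in the Gm10696 interval and XLOC_020116 in that of Gm13109 are low rows, on 22, 18 and 25 reads. The log2(FPKM + 0.5) scale understates their rise and so overstates the gap to their genes. On it they rose less than their genes, with ratios of -1.82, -2.03 and -1.96 (adjusted p = 0.0204, 0.0177 and 0.0204). The first was not called without shLuci replicate 2 (0.0564) or shTex10 replicate 2 (0.0635), and the third not without shTex10 replicate 1 (0.0721). The rises of these rows themselves were not called in single cases either: that of XLOC_018199 without shTex10 replicate 1 (0.0577), that of XLOC_018201 without shLuci replicate 1 (0.084) or shTex10 replicate 1 (0.0541), and that of XLOC_020116 without shLuci replicate 2 (0.0638). XLOC_010284 in the interval of the nuclear receptor gene Nr4a1 fell from 1.79 and 2.07 FPKM to 0.195 and 0.883 FPKM while Nr4a1 rose by 0.64, at a ratio of -1.95 (adjusted p = 0.0485). This ratio was not called without shLuci replicate 1 (0.0627), shLuci replicate 2 (0.111) or shTex10 replicate 1 (0.0871), and the fall of the row not without shLuci replicate 1 (0.0557) or shLuci replicate 2 (0.0782). With a pseudocount of 0.1, none of the 5 ratios given here passed (adjusted p between 0.0891 and 0.492). Those of XLOC_018199, XLOC_018201 and XLOC_020116 were then -0.83, -1.45 and -1.48.

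**Figure D5:**
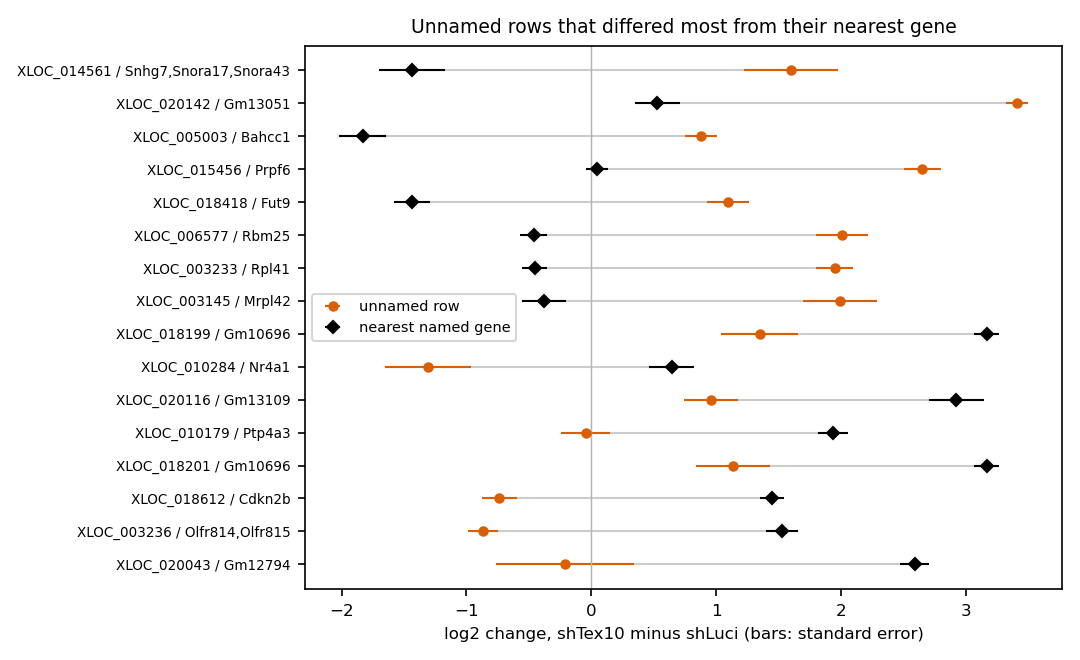
Differences (x axis, shTex10 minus shLuci, log2(FPKM + 0.5), bars are the standard error) of the 8 unnamed rows that departed most upward and the 8 that departed most downward from their nearest gene, with the row as a circle and the gene as a diamond. The row near Prpf6 rose by 2.65 beside 0.05 for the gene, and the row near Cdkn2b fell by 0.74 while the gene rose by 1.45.

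In 35 pairs, with 32 genes, the row and its gene passed in opposite directions, and all 35 passed the ratio test as well. That adds no separate support, because the pairs were chosen on opposite calls in the same 4 libraries. Further pairs of this kind, named after their values were seen, lay near Pdia4, a protein disulfide isomerase gene, where XLOC_023290 rose from 1.02 and 1.07 FPKM to 4.13 and 4.03 FPKM while Pdia4 fell by 0.52, and near Snx9, a sorting nexin gene, where XLOC_012516 rose by 0.53 while Snx9 fell by 1.10. In the other direction XLOC_009050, 451 bp upstream of Tsc22d1, fell from 1.51 and 1.71 FPKM to 0.362 and 0.657 FPKM while Tsc22d1 rose by 0.52, and XLOC_020104, upstream of the ephrin receptor gene Epha2, fell from 1.56 and 1.44 FPKM to 0.613 and 0.452 FPKM while Epha2 rose by 0.61.

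Rows were also grouped by lists of genes. Near 5 of the genes of the 2-cell-like state there were 14 rows, of which 13 were higher and 0 lower, with a median difference of 1.73, beside 20 higher and 0 lower of the 21 listed genes tested. Of the 13, 8 are the rows of the Gm5662 interval described above. Both rows next to Dux, the transcription factor gene that switches on this state, rose: XLOC_003016 from 0.218 and 0.347 FPKM to 2.48 and 1.77 FPKM, and XLOC_001906 from 0.446 and 0.880 FPKM to 3.09 and 3.48 FPKM. The groups were apart in both. The row in the interval of Eif1a did not pass (-0.08). Over the alternatives that kept all 14 rows, between 12 and 13 were called higher and 0 lower.

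Near 4 genes of the naive pluripotency list, Zfp42, Lefty2, Nr0b1 and Mybl2, there were 10 rows, 7 lower and 0 higher, with a median of -0.67. Of the 23 listed genes tested, 13 were lower and 5 higher. Among the 7 lower rows, XLOC_016746 (-0.68) and XLOC_016745 (-0.61) lay near Mybl2 and XLOC_001259 near Lefty2. Rows beside Zfp42 (Rex1), a marker of undifferentiated ES cells, fell with the gene. XLOC_027347, 59 bp upstream, went from 4.61 and 4.14 FPKM to 1.70 and 1.73 FPKM (-1.14, SE 0.11, adjusted p = 0.00238). XLOC_027346, 2907 bp downstream, went from 7.46 and 7.29 FPKM to 3.38 and 2.87 FPKM, and XLOC_027345, 4684 bp downstream, from 3.63 and 3.08 FPKM to 1.64 and 1.26 FPKM. Zfp42 itself went from 612.0 and 614.7 FPKM to 373.9 and 369.6 FPKM (-0.72), and the ratio did not pass for any of the 3 rows (adjusted p = 0.208, 0.230 and 0.448). Rows near Lefty2, a Nodal inhibitor gene, and Nr0b1 fell less than their genes on the log2(FPKM + 0.5) scale, which understates the fall of the low row near Nr0b1. XLOC_001259 went from 5.38 and 5.51 FPKM to 3.45 and 3.94 FPKM (-0.51) beside -1.71 for Lefty2, and XLOC_030445 from 0.742 and 0.721 FPKM to 0.348 and 0.210 FPKM (-0.67) beside -2.28 for Nr0b1. The ratio passed in both (adjusted p = 0.0224 and 0.0114). All 10 rows kept a negative difference under every alternative run, but 1 passed after scaling to the same sum over all rows, 3 after scaling to the same sum over named rows, and 4 without shTex10 replicate 2.

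Near 8 core pluripotency genes there were 29 rows, 8 lower and 0 higher, with a median of -0.37, and 11 of the 16 listed genes were lower and 1 higher. Of the 8, 4 lay near Zfp281 and 1 near Dppa2. XLOC_001634 in the interval of Zfp281, a zinc finger repressor gene, went from 3.49 and 3.45 FPKM to 1.495 and 2.17 FPKM, and Zfp281 did not pass (-0.09, adjusted p = 0.517). The ratio of this row to Zfp281 did not pass either (-0.69, adjusted p = 0.0917). XLOC_011238, 3379 bp upstream of Dppa2, fell by 0.70 while Dppa2 rose by 0.40 (ratio -1.10, adjusted p = 0.0365). The groups did not overlap in either row. The first was not called without shLuci replicate 1 (adjusted p = 0.0516), and the second not without shLuci replicate 1 (0.0947) or shTex10 replicate 1 (0.0705). The rows near Nanog, Sox2, Sall4, Otx2 and Dppa4 did not pass. This count depended on the processing and on single libraries. It was 1 lower and 1 higher without shLuci replicate 1, 3 lower without shLuci replicate 2, 5 lower without shTex10 replicate 1, 5 lower and 2 higher without shTex10 replicate 2, 2 lower after scaling to the same sum over named rows and 16 lower after quantile normalization.

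Near 8 p53 target genes there were 13 rows, 6 higher and 3 lower, with a median of 0.23, while 23 of the 30 listed genes were higher and 1 lower. XLOC_018308, 761 bp upstream of Ddit4l, a gene for an inhibitor of mTOR signalling, went from 0.498 and 0.585 FPKM to 2.86 and 2.96 FPKM on 235 reads (1.71, adjusted p = 0.00138), beside 2.45 for the gene. XLOC_001629, upstream of Phlda3, went from 0.218 and 0.231 FPKM to 1.30 and 1.89 FPKM, on only 15 reads, 1 in each shLuci library. XLOC_025712, 74 bp upstream of the apoptosis gene Bbc3 (PUMA), went from 1.06 and 0.932 FPKM to 2.101 and 2.38 FPKM on 94 reads. Both groups of each row were apart, and the ratio to the gene did not pass in the 3 rows (adjusted p = 0.0588, 0.565 and 0.629). The other 3 that rose lay near Trp53inp1 and Ccng1. The 3 that fell lay near Epha2, Ccnd1 and Cdkn2a, and Ccnd1 also fell. Of the 13 rows, 4 were called higher without shLuci replicate 1 and 4 without shTex10 replicate 2.

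Of 41 ribosome biogenesis genes tested, 30 were lower and 1 higher, while the 11 rows near 9 of them had 3 lower, 0 higher and a median of -0.07. The 3 were XLOC_005128 near Npm1, a nucleolar chaperone gene, XLOC_014372 near Nolc1 and XLOC_030165 near Las1l, whose product works in the complex with TEX10. XLOC_014372, 203 bp upstream of Nolc1, went from 0.845 and 0.899 FPKM to 0.362 and 0.131 FPKM (-0.90, adjusted p = 0.0221) beside -0.80 for Nolc1, and the call was lost without shLuci replicate 1 (0.0619) or shLuci replicate 2 (0.0752). XLOC_030165 went from 4.71 and 3.29 FPKM to 2.46 and 2.22 FPKM, and its call was lost without shLuci replicate 1 (0.111), shTex10 replicate 1 (0.0739) or shTex10 replicate 2 (0.112). XLOC_023805, 99 bp upstream of the rRNA methyltransferase gene Fbl, measured 0.484 and 0.553 FPKM against 1.20 and 0.751 FPKM and did not pass, and Fbl fell by 0.65, with a ratio that passed (1.17, adjusted p = 0.031). Of the 11, 1 was called lower without shLuci replicate 1.

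The other lists had few rows. The rows upstream of the cofactor genes Tet1, Nipbl and Ep300 did not pass, with 7 of the 16 listed genes lower and 0 higher. XLOC_003040, 88 bp upstream of Tet1, a DNA demethylase gene, measured 1.11 and 1.62 FPKM against 1.04 and 0.717 FPKM (-0.44, adjusted p = 0.145) beside a fall of Tet1 by 0.90. XLOC_010226, 362 bp upstream of the acetyltransferase gene Ep300, measured 0.746 and 1.07 FPKM against 1.31 and 1.34 FPKM (0.38, adjusted p = 0.113), and XLOC_009171, upstream of the cohesin loader gene Nipbl, 1.13 and 1.52 FPKM against 0.708 and 1.10 FPKM. The 3 rows near genes of the imprinted list, Impact and Snrpn, did not pass, with differences of 0.04, -0.26 and -0.98. Zdbf2, whose interval is described above, was not on that list. Of the 2 rows near snoRNA hosts, that of Snhg7 rose and XLOC_016677, downstream of Nop56, did not pass (0.03). No row lay near the 13 housekeeping genes of the lists.

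Of the 10 highest rows, 2 rose, 3 fell and 5 did not pass. The loci near Il1f9, Ensa, Rbm25, Col22a1 and Rsrc2 are 210, 235, 261, 271 and 302 bp long. The row near Il1f9 rests on 252 recovered reads in all, so a high FPKM need not stand for many reads. XLOC_018205, on a locus of 235 bp upstream of Ensa, a gene for an inhibitor of protein phosphatase, measured 168.2 and 398.4 FPKM in shLuci and 354.0 and 347.8 FPKM in shTex10, so the 2 shLuci libraries differed more from each other than the groups did (0.44, adjusted p = 0.414). Without shLuci replicate 1 the difference was -0.18, and without shLuci replicate 2 it was 1.06 and passed (adjusted p = 0.00605). XLOC_016485, upstream of the cytokine gene Il1f9, measured 161.1 and 162.1 FPKM against 136.4 and 123.7 FPKM (-0.31, adjusted p = 0.0388). That call was lost without any 1 of the 4 libraries, with adjusted p between 0.083 and 0.215. XLOC_009292, downstream of the collagen gene Col22a1, measured 46.6 and 46.9 FPKM against 63.1 and 46.2 FPKM, and XLOC_021892, downstream of Rsrc2, 54.4 and 45.4 FPKM against 40.2 and 39.0 FPKM, and both did not pass. The same held for XLOC_019727 and XLOC_020131 in the interval of Gm13242, at 37.0 and 35.9 against 40.3 and 38.8 FPKM and at 23.1 and 21.5 against 29.9 and 25.8 FPKM. The remaining 4 are the rows near Rbm25, in the Speer interval, in the Zfp600 interval and in that of Olfr814, all described above, of which 2 rose and 2 fell.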

How the data were processed

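Poly(A) RNA was sequenced as 100-bp single reads in 2 shLuci and 2 shTex10 libraries, per the labels' protocols. The authors deposited 1 FPKM value per row and library, without pooling, and the submitters' processing notes list Cufflinks 2.1.1, TopHat2 2.0.10, Bowtie2 2.1.0 and build mm9. Annotation, options and strand handling are not given in those notes. FPKM holds no counts, and very abundant rows can shift all others. Locus starts behave as counted from 0 (in 6289 of 20709 genes end minus start equals the RefSeq length), so 1 was added. Upstream and downstream were read from the strand of the gene of the same symbol in GENCODE M21, whose order of neighbouring genes matched in 96.5% of 20493 pairs.

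Named rows, and unnamed rows over 200 bp, with a mean of at least 0.5 FPKM (16968) were fitted in R 4.3.3 by limma 3.58.1 on log2(FPKM + 0.5), with trended eBayes and without a replicate block (Benjamini-Hochberg adjustment over all rows, threshold 0.05). A second fit took the row minus its nearest named row (largest overlap, then smallest distance, then higher mean) for 2869 pairs, adjusted over all pairs. Both fits were tested on simulated data. With 2 against 2 libraries an exact permutation test cannot go below p = 0.33, so none is given. Reads were recovered from rows whose values in at least 3 libraries were whole multiples of 1 read within 0.015, trying smallest counts up to 60.

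Named rows are the 10 highest, the 10 with the largest differences in each direction, the 8 with the largest ratio changes in each direction, up to 3 per gene list by p, and any row nearest to Tex10. The largest differences were taken among rows past the test whose groups do not overlap, and the largest ratio changes among rows past the ratio test. Other rows were named after their values were seen: further rows of the Speer, Rbmxl2 and Dux loci, those near Fbl, Lefty2 and Nr0b1, the second row near Rpl41 and the added opposite pairs. The rows and lists were chosen with earlier results of these data known. Alternatives were other pseudocounts, filters, scalings, eBayes options, a replicate block, another nearest gene, shared intervals only, and leaving out each library.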

Additional observations from a re-analysis of the deposited data

How the results depend on the processing

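Of 64 called values of the rows named, 37 kept direction and call under each alternative run. Counts of higher and lower rows (330 and 183) became 81 and 43 at a mean FPKM of at least 2 (262 rows), 215 and 371 with quantile normalization, and 112 and 63 in shared intervals only. Lower rows became 121 without a filter, 98 at the same sum over named rows and 89 at the same sum over all rows. Leaving out 1 library gave 250 to 303 higher and 119 to 145 lower. Counts of upward and downward ratios (101 and 71) became 29 and 5 at a mean FPKM of at least 2, 45 and 143 with quantile normalization, and 21 and 32 in shared intervals. Downward ratios became 36 at a pseudocount of 0.1. Leaving out 1 library gave 34 to 55 upward and 15 to 44 downward. Alternatives added after the data were seen gave 206 higher rows and 56 upward ratios with at least 20 recovered reads, and 218 higher rows, 120 lower rows and 39 downward ratios among rows beside a locus. Subsets hold fewer rows by construction. For the other alternatives the cause was not tested.

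The replicate block gave 365 higher and 232 lower rows and 116 upward and 80 downward ratios. Deviations of same-numbered libraries correlated at 0.161 over 16968 rows, and nothing in the labels says that a number marks a shared culture, so the numbers were not taken as pairs. With the block, 4 named rows that had not passed did so, near Gm13242 (2 rows), Rsrc2 and Snrpn.

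Reversed directions all belonged to rows that had not passed. At the same sum over named rows XLOC_010179 gave 0.08. XLOC_016677 gave -0.01 at the same sum over all rows, -0.0 at the same median and -0.3 with quantile normalization, where XLOC_013346 gave -0.29. Leaving out 1 library gave differences of -0.02 to 0.43 for XLOC_009292, -0.25 to 0.16 for XLOC_010179, -0.17 to 0.26 for XLOC_013346, -0.69 to 0.16 for XLOC_013347, -0.3 to 0.36 for XLOC_016677, -0.18 to 1.06 for XLOC_018205 and -0.96 to 0.54 for XLOC_020043. The cause of these reversals was not tested. Over all rows with recovered reads the median was 54 reads in the 4 libraries together.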
